A study of Mus musculus with 3 samples.

Results

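Complement genes of the kind that connective tissue cells transcribe were followed through bulk RNA sequencing of sorted mouse leptomeningeal cells. The set held 9 genes, chosen by symbol: C1ra, C1s1, C4b, C3, Cfb, Cfd, C7, Serping1 and Cd55. They were 9 of the 46983 genes in the table of counts. The C1q chains were left out of the set by definition and are given below for comparison. There were 3 libraries, all from the pia enriched fraction of vehicle-treated mice, so there was no treated or untreated group to compare. The leptomeninges are the thin inner membranes of the brain; they were microdissected, dissociated and sorted by flow cytometry before RNA was isolated. The sorting gate, what the vehicle stood against, and the mice's strain, age and sex were not given in the sources used here. No label said whether the 3 libraries came from separate animals, so their spread may be technical in part.

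Complement is a cascade of plasma proteins that marks surfaces for uptake, recruits leukocytes and can form a pore in membranes. In the classical pathway C1q binds a target and carries a pair of proteases, C1r and C1s, which cleave C4 and C2. The alternative pathway acts through factor B and factor D, and both routes meet at C3. C5 to C9 then build the membrane attack complex. Host cells are protected by soluble inhibitors such as C1 inhibitor, the product of Serping1, and by membrane proteins such as CD55, which speeds the decay of the convertases. The liver makes most plasma complement, and fibroblasts, macrophages and other tissue cells also make components locally.

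The libraries held between 21002860 and 28704952 gene counts. Levels are given as counts per 1000000 (CPM) after scaling of library sizes, and as CPM per kilobase of exon where genes are compared with each other. Marker lists of cell types are given as sums of CPM, not divided by length. The 8 fibroblast genes summed to between 26599 and 31732 CPM, with Col1a2 at 11497 ± 935 CPM (SD, n = 3) and Col1a1 at 5099 ± 853 CPM. Sums were lower for mural (2906 to 5093 CPM), choroid plexus (57.4 to 2714 CPM, mostly Ttr), Schwann (840 to 1746 CPM) and arachnoid barrier genes (926 to 1307 CPM, mostly Slc47a1). Endothelial (65.4 to 101 CPM), astrocyte (46.0 to 88.8 CPM) and neutrophil genes (2.53 to 4.86 CPM) had small sums. Library 1 stood apart from the others. Its ratio to libraries 2 and 3 rose with the GC content of genes (Spearman coefficient 0.608 across genes, which are not independent), and its macrophage and microglia genes summed to 8.84 CPM against 190 and 505 CPM. Of 8 such genes, 7 had a count in every library, and Adgre1 had no count in library 1. In RNA from many cells, fewer cells of a type and less RNA per cell cannot be told apart.

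The members ranged from among the most abundant transcripts of these cells to none at all. Of the 9 genes, 7 passed the filter on low counts, C7 had 3 counts in 1 library, and Cfd had no count in any library. The members took 0.340%, 0.204% and 0.176% of gene counts in libraries 1, 2 and 3. Most of that was Serping1, at 85.2%, 81.8% and 76.8% of the members' counts, and at 89.3%, 87.1% and 84.1% once each gene was divided by its length in exon bases. The length-scaled share is lower over unique words alone, a scale described below. On it the mean of C1ra was 2.07 times that per kilobase of exon, and the mean of Serping1 was 0.985 times. The median member lay at 5.21 ± 0.55 on the log2(CPM + 1) scale (SD, n = 3). The median over the 14409 genes past the filter was 4.19 ± 0.12. The other 48 complement genes of the lists had a median of 0.576 ± 0.219 on the same scale, and 20 of them passed the filter. These are descriptions of lists of unlike make-up, and no test was run on them.

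**Figure D1:**
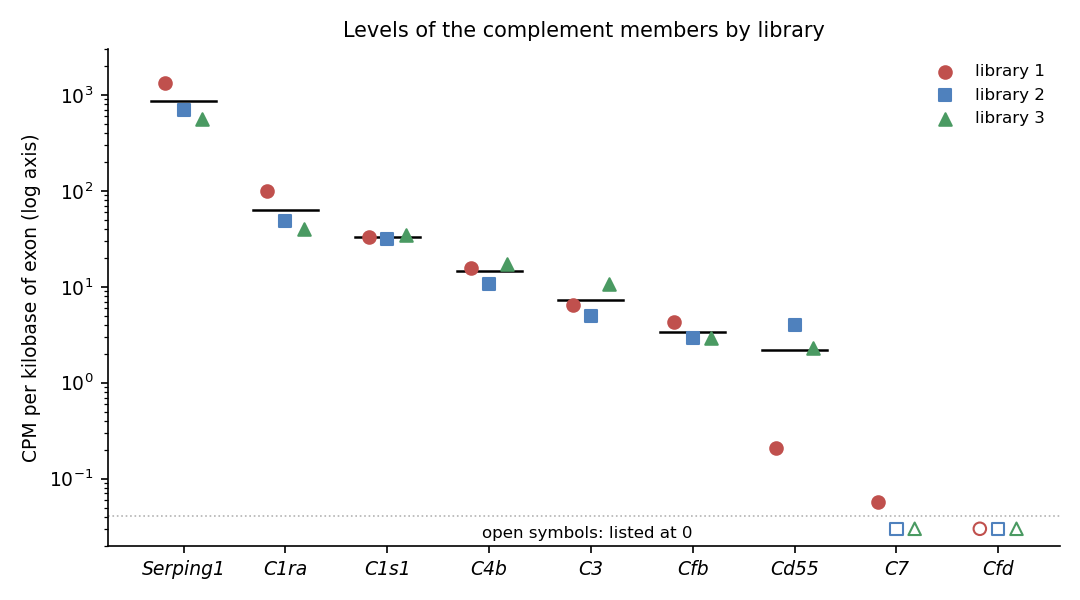
CPM per kilobase of exon (log axis) of the 9 members in libraries 1, 2 and 3, with the mean as a bar for the 7 that passed the filter; open symbols at the foot stand for a count of 0. Serping1 lies far above the rest, Cd55 is spread over more than a factor of 10, and Cfd is at 0 in each library.

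The proteases of the C1 complex were both abundant. C1ra (ENSMUSG00000055172.10, chromosome 6, 124512405 to 124523443, plus strand), which encodes C1r, the protease that activates C1s, was at 295, 144 and 120 CPM in libraries 1, 2 and 3. Library 1 was the high one, 2.46 times library 3. C1s1 (ENSMUSG00000038521.17, chromosome 6, 124530345 to 124542359, minus strand), which encodes C1s, the protease that cleaves C4 and C2, was at 103, 99.1 and 108 CPM. Its range over libraries, 0.12 on the log2(CPM + 1) scale, stood at percentile 2.80 among the genes past the filter. The genes lie next to each other on chromosome 6 and their values were not ordered alike: per kilobase, C1ra exceeded C1s1 by 3.01, 1.53 and 1.17 times in libraries 1, 2 and 3.

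Mouse C1r, C1s and C4 each have a near-identical second gene, and reads that match both copies cannot be placed by sequence alone. The coding sequence of C1ra was 98.0% identical to that of C1rb over 2121 aligned bases, with an identical run of 757 bases. C1s1 was 95.6% identical to C1s2, C4b was 96.1% identical to C4a over 5207 bases (no coding part is annotated for the C4a transcript used, so it was aligned whole), and Cd55 was 93.3% identical to Cd55b. The 60 aligned bases with the most differences are shown for each of the 3 protease and C4 pairs, because such stretches are where reads can tell the copies apart. Capitals mark the bases that differ between the copies, positions count from the first coding base of the member, and sequences are those of GENCODE M21 on GRCm38, 5′ to 3′. The C1ra stretch spans coding bases 1798 to 1857, with 11 differences, that of C1s1 bases 1484 to 1543, with 17, and that of C4b bases 2705 to 2764, with 13.
C1ra: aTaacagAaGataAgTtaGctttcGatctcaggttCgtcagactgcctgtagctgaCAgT
C1rb: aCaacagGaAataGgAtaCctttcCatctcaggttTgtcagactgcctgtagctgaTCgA
C1s1: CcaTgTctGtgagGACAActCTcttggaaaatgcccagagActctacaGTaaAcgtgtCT
C1s2: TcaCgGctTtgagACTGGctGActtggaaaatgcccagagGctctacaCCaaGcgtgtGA
C4b: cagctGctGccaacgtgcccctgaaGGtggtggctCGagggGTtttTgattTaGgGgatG
C4a: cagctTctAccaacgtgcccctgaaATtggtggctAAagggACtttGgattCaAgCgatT

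Reads that did separate the copies fell almost wholly on the members. C1rb had 5, 3 and 1 counts in libraries 1, 2 and 3, which was 0.0856%, 0.0697% and 0.0321% of the summed C1ra and C1rb counts. C1s2 had 1, 2 and 3 counts. C4a had 12, 17 and 11 counts, or 0.669%, 0.919% and 0.431% of the summed C4 counts. Cd55b had no count in any library. The values of the 4 members are uncertain to the extent that shared reads were dropped in counting, which is taken up below.

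C4b (ENSMUSG00000073418.4, chromosome 17, 34728380 to 34743882, minus strand) encodes C4, the classical and lectin pathway component that binds covalently to surfaces. It was at 90.1, 61.6 and 98.0 CPM in libraries 1, 2 and 3. Library 2 was lowest, and libraries 1 and 3 were close. C2, which joins C4b in the classical C3 convertase and is no member of the set, was at 89.6, 54.9 and 43.2 CPM. The C1q chains, which macrophages and microglia transcribe, behaved unlike the proteases. C1qa, C1qb and C1qc together were at 4.75, 108 and 326 CPM, with the lowest and the highest value in the same libraries as the macrophage and microglia genes. Per kilobase of exon, C1qb was at 52.4 ± 60.7 and C1ra at 62.5 ± 31.8 CPM (SD, n = 3), and the library highest for the one was not the highest for the other.

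C3 (ENSMUSG00000024164.15, chromosome 17, 57203970 to 57228136, minus strand), the component at which the pathways meet, was at 33.4, 25.5 and 54.9 CPM. Library 3 was highest, 2.15 times library 2. Several marker sums were also highest in library 3. Mural (3378, 2906 and 5093 CPM in libraries 1, 2 and 3), Schwann cell (987, 840 and 1746 CPM) and astrocyte sums (60.7, 46.0 and 88.8 CPM) were, like C3, lowest in library 2. The macrophage and microglia (above), choroid plexus, lymphocyte and neutrophil sums were lowest in library 1. Of the mural genes 6 of 6, of the Schwann cell genes 5 of 5, and of the astrocyte genes 5 of 5 had a count in every library. Of these, 2 mural, 1 Schwann cell and 2 astrocyte genes were instead lowest in library 1. The mural gene Pdgfrb (712, 542 and 536 CPM) was highest there and lowest in library 3. The part of these genes in the C3 values was not tested. The 6 NF-kB and acute phase genes were not ordered alike. Nfkbia (492, 252 and 359 CPM) and Cxcl1 (34.2, 21.4 and 21.6 CPM) were highest in library 1 and lowest in library 2. Il6 was highest in library 2 (11.4, 28.6 and 14.8 CPM). Lcn2, an acute phase transcript (0.404, 1.98 and 16.7 CPM), and Ccl2 (10.6, 12.5 and 16.3 CPM) were highest in library 3 and lowest in library 1. Saa3 had a mean of 0.161 CPM. The list summed to 549, 316 and 428 CPM, mostly Nfkbia, and its part in the C3 values was not tested. Per kilobase of exon, C4b exceeded C3 in every library, by 2.44, 2.18 and 1.61 times, and by 3.72, 3.34 and 2.46 times over words that no other gene model holds.

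Cfb (ENSMUSG00000090231.10, chromosome 17, 34856374 to 34862518, minus strand), which encodes factor B, the protease zymogen of the alternative pathway convertase, was at 12.0, 8.20 and 8.29 CPM. Libraries 2 and 3 were level and library 1 slightly higher. Cfd (ENSMUSG00000061780.5, chromosome 10, 79890853 to 79892655, plus strand) encodes factor D, also called adipsin, which cleaves factor B and is a major product of fat cells. Its count of 0 in each library allowed at most 3 counts, or 0.152, 0.101 and 0.116 CPM. None of the 919 words of 50 bases in its transcripts occurs in another annotated gene, so its reads would be shared with no annotated copy. The fat cell markers summed to between 1.47 and 2.92 CPM, with Pparg and Adipoq at 1.78 ± 0.45 and 0.606 ± 0.606 CPM (SD, n = 3) and Cidec at 0 in every library. Cfp, which encodes properdin, the stabiliser of the alternative convertase, was no member; it was at 5.10, 5.98 and 14.2 CPM.

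Terminal components were close to absent. C7 (ENSMUSG00000079105.3, chromosome 15, 4988762 to 5063740, minus strand), which anchors the attack complex in the membrane, had 3 counts in library 1 and 0 in libraries 2 and 3, so it was at or under the limit set by 3 counts. Of the 7 terminal genes, Hc, C6, C7, C8a, C8b and C9 each had a mean below 1 CPM, and C8a and C8b had no count. The exception was C8g, at 12.5, 5.17 and 4.28 CPM, which encodes the lipocalin-like chain of C8. The hepatocyte genes Alb, Serpina1a and Fga, markers of the organ that makes most plasma complement, were at 0 in each library. Apoa1 of that list had a mean of 0.762 CPM, and Ttr, also a choroid plexus gene, is given with that list below.

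Serping1 (ENSMUSG00000023224.12, chromosome 2, 84765387 to 84775444, minus strand), the inhibitor of C1r and C1s, was the leading member. It was at 3074, 1614 and 1322 CPM in libraries 1, 2 and 3, and ranked number 29, 55 and 73 among genes by count. Library 1 was 2.33 times library 3, the same order of libraries as for C1ra and for 17.7% of all genes past the filter. Per kilobase of exon, Serping1 exceeded C1ra by 13.4, 14.3 and 14.1 times (13.9 ± 0.5, SD, n = 3), a narrow spread beside the more than 2-fold span of each gene. Against C1s1 the ratio was 40.2, 21.9 and 16.5. How often gene pairs outside the set keep as steady a ratio was not counted. Over only those 50-base words that no other gene model holds, a scale described below, the ratio to C1ra was 6.37, 6.82 and 6.73, and that to C1s1 was 26.4, 14.4 and 10.9. Both C1ra and Serping1 are known interferon targets. Interferon response genes were not ordered alike: Isg15 was at 194, 87.2 and 58.5 CPM in libraries 1, 2 and 3, Ifit1 was highest in library 2 (120, 209 and 73.1 CPM), and Gbp2 was level at 211, 235 and 211 CPM. The list, 6 of 6 genes with a count in every library, summed to 883, 902 and 546 CPM, and its part in the values of both genes was not tested.

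Cd55 (ENSMUSG00000026399.12, chromosome 1, 130439027 to 130462744, minus strand), the membrane regulator of the set, was the member that differed most between libraries. It had 20, 578 and 291 counts, or 1.01, 19.4 and 11.2 CPM in libraries 1, 2 and 3. Library 1 was low, and library 2 was 19.2 times as high. Lymphocyte genes were also lowest in library 1 in their sum of 2.88, 49.9 and 58.0 CPM. In libraries 2 and 3 that sum came almost wholly from the B cell genes Cd79a, Cd79b and Ms4a1 and from Ptprc. In library 1 Cd3e made up 0.606 CPM of it. Of that list 3 of 6 had a count in every library; Ms4a1 had none in library 1, whereas the T cell gene Cd3e was highest there, with 12, 0 and 7 counts, and Cd3g had 0, 2 and 0 counts. Choroid plexus genes, 6 of 6 with a count in every library, summed to 57.4, 1759 and 2714 CPM, with Ttr at 32.6, 1594 and 2530 CPM. In the sums of these lists, and of the macrophage and microglia list, library 3 was highest, whereas Cd55 was highest in library 2. Other values were, like Cd55, lowest in library 1 and highest in library 2. These included the sums of the fibroblast genes (26599, 31732 and 27795 CPM) and of the arachnoid barrier genes (926, 1307 and 1123 CPM, mostly Slc47a1). All 8 and all 5 of their genes had a count in every library, but the genes were not ordered alike. Of the fibroblast genes, 4 of 8 were lowest in library 1, and 2, Dcn and Col6a1, were highest there. Of the arachnoid barrier genes, 3 of 5 were lowest in library 1, among them Dpp4 (0.808, 7.12 and 6.21 CPM). Krt19 (38.5, 19.8 and 13.6 CPM) and Cldn11 were highest there. The choroid plexus genes Clic6 and Prlr peaked in library 2, as Cd55 did, and Ttr, Folr1, Kcnj13 and Kl in library 3. The part of these genes in the Cd55 values was not tested.

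**Figure D2:**
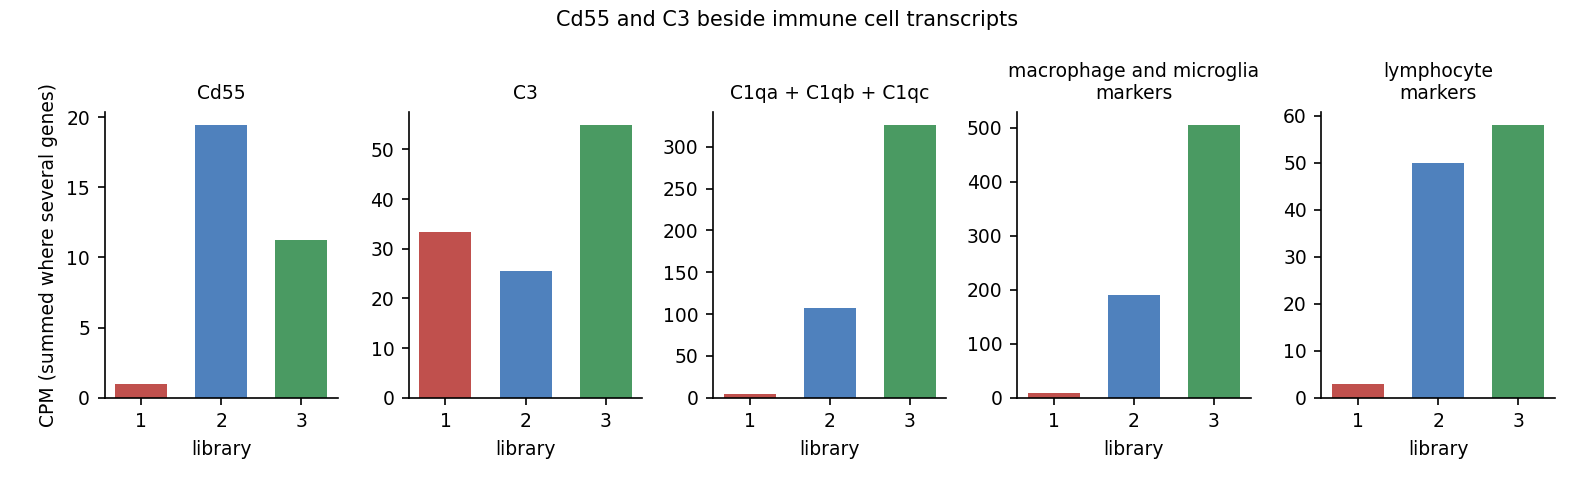
CPM in libraries 1, 2 and 3 of Cd55, of C3, of the summed C1q chains, and of the summed macrophage and microglia (8 genes) and lymphocyte (6 genes) markers; each panel has its own axis from 0, and each bar is 1 library. Cd55 shares the low value of library 1 (1.01 CPM) with the immune sums and not their peak in library 3, and C3 has no low value in library 1.

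The regulators outside the set are given per kilobase of exon. Of 10 soluble regulators, 3 had a mean of at least 10 CPM: Serping1 itself, Vtn at 284 ± 175 and Clu at 142 ± 31 CPM per kilobase (SD, n = 3). Vtn and Clu encode vitronectin and clusterin, which block insertion of the attack complex. Of 8 membrane regulators, 4 reached that level. Cr1l, which encodes Crry, the rodent inhibitor of C3 convertases, was at 12.0 ± 2.9, Cd59a, whose product blocks C9, at 22.4 ± 12.2, and Susd4 at 5.53 ± 0.40 CPM per kilobase. Cd55, at 2.17 ± 1.90 CPM per kilobase, had the lowest mean of the 4. Of the 9 lectin pathway genes, Colec12, a scavenger receptor of the collectin family, was at 10.7 ± 1.8 CPM per kilobase, Colec11 had a mean of 1.04 CPM, and the other 7, the proteases Masp1 and Masp2 among them, each had a mean below 1 CPM. None of the 8 complement receptors had a mean of 10 CPM, though C3ar1 was at 10.2 CPM in library 3, and they summed to 4.50, 17.4 and 30.4 CPM.

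**Figure D3:**
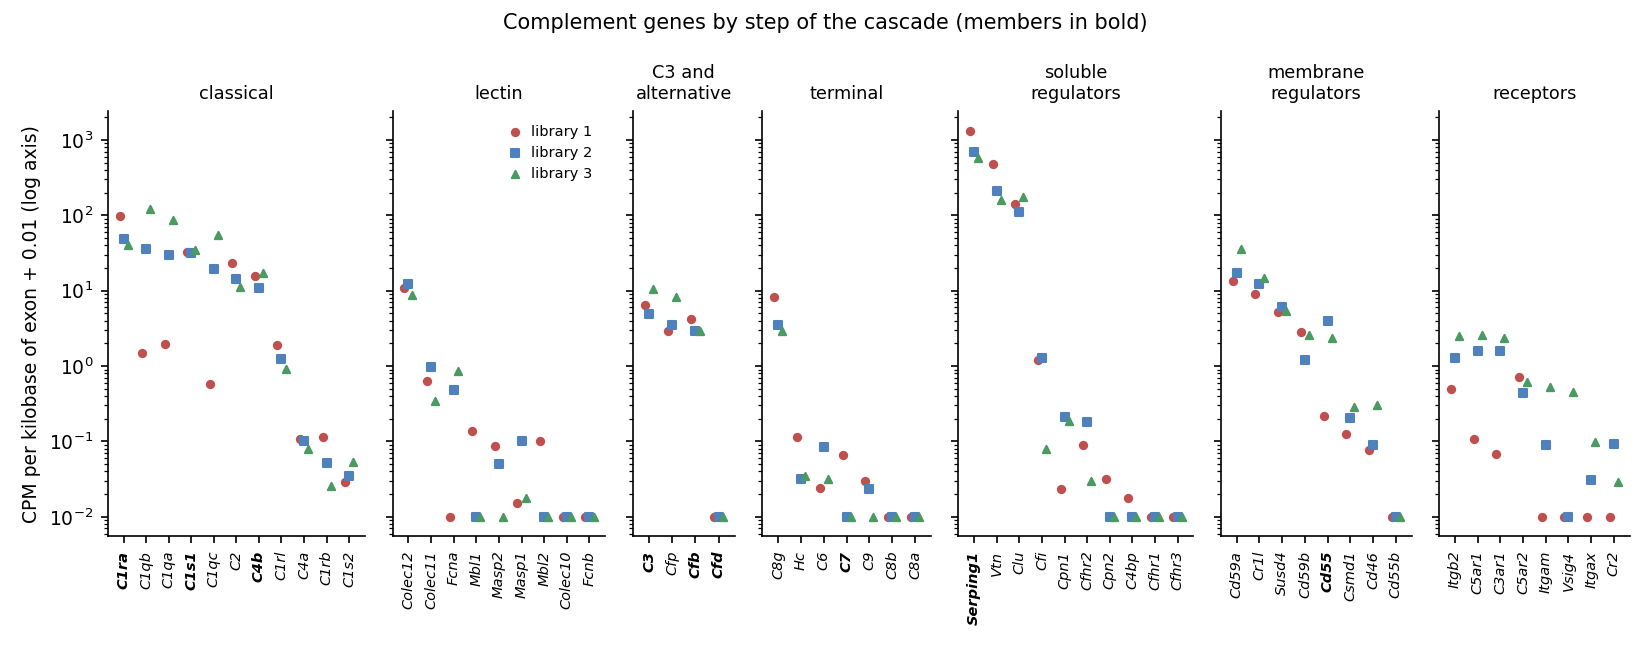
CPM per kilobase of exon + 0.01 (log axis) of 57 complement genes in libraries 1, 2 and 3, grouped by step of the cascade, with members in bold. Serping1 has the highest mean, the terminal genes except C8g lie near the foot, and the C1q chains are low in library 1.

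Placed on 1 scale per kilobase of exon, the members fell in the order Serping1 (862 ± 404), C1ra (62.5 ± 31.8), C1s1 (33.0 ± 1.4), C4b (14.6 ± 3.4), C3 (7.37 ± 2.96), Cfb (3.36 ± 0.77) and Cd55 (2.17 ± 1.90 CPM per kilobase, SD, n = 3), with C7 and Cfd at or near 0. Serping1 lay at percentile 99.7 of the genes past the filter on this scale, C1ra at 94.4, C3 at 66.0 and Cd55 at 37.4. Neighbours were called apart where the higher was higher in 3 of 3 libraries and the gap of the log2 means exceeded the larger SD. By that rule 20 of the 21 pairs among the 7 genes were apart, and Cfb and Cd55 were not, since Cfb was the higher in 2 of 3 libraries and Cd55 in library 2. The step from Serping1 to C1ra was 13.9-fold as a ratio of geometric means (6.64-fold over words that no other gene model holds), and that from C1ra to C1s1 was 1.75-fold (2.42-fold). No p-value was computed for the order: with 3 libraries an exact permutation test of paired values cannot go below 0.25.

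The order of the lower members, and the size of the steps between the upper ones, depended on which bases could be counted. Cfb lies beside C2 within the class III region of the MHC, and a read-through gene model, Gm20547 (chromosome 17, 34856412 to 34882042, minus strand), covers both on the same strand. It overlapped 79.5% of the exon bases of Cfb and 42.8% of those of C2, it was listed in the table, and it had 0 counts in each library. Reads in the overlap belong to 2 gene models, and the table held 1.31% to 1.39% of its reads as ambiguous. Of the words of 50 bases in the members' transcripts, 73.0% of those of Cfb, 50.8% of C1ra, 35.1% of C1s1, 34.6% of C4b and 9.12% of Cd55 also occurred in another gene model, and 0% of those of C3, C7, Cfd and Serping1. A fragment with either paired read in a unique stretch can still be placed, so these shares are not shares of lost reads.

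Divided by the kilobases of unique words only, Cfb was at 11.7 ± 2.7, against 3.36 on the scale of all exons, a factor of 3.47 (SD, n = 3). It then lay above C3 (7.32 ± 2.94) in its mean and in libraries 1 and 2, and level with it in library 3 (10.2 against 10.6). C1ra moved to 129 ± 66, C1s1 to 49.4 ± 2.1 and C4b to 22.2 ± 5.1 CPM per kilobase of unique words. Serping1, at 849 ± 398, stayed first, and the order of Serping1, C1ra, C1s1 and C4b was the same on both scales. This scale was chosen after the data had been seen.

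**Figure D4:**
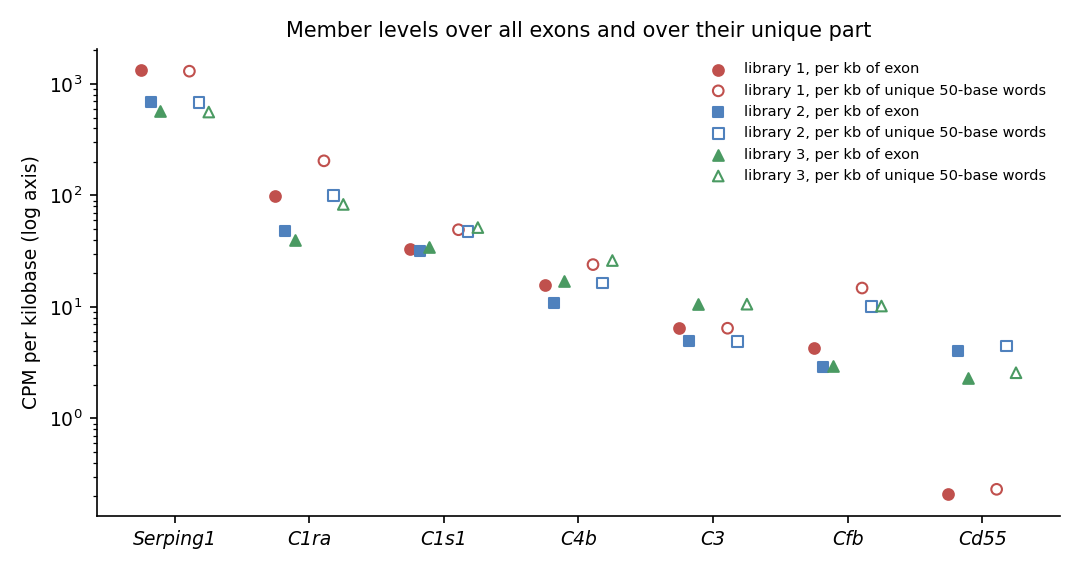
CPM per kilobase (log axis) of the 7 members past the filter in libraries 1, 2 and 3, over all exon bases (filled) and over words of 50 bases that no other annotated gene holds (open). Cfb moves up 3.47-fold and passes C3 in libraries 1 and 2, and Serping1, C3 and Cd55 hardly move.

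The comparison between replicate libraries was tested over all genes by goodness of fit in edgeR, with the spread expected at each gene's level. It called 63 of 14409 genes (0.437%) at a Benjamini-Hochberg adjusted p of 0.05, and 1 of the 7 members past the filter. That member was Cd55 (edgeR adjusted p = 0.0229), with a difference of -2.97 between library 1 and the mean of libraries 2 and 3 on the log2(CPM + 1) scale. The call was lost when any single library was left out: the edgeR adjusted p was 0.9996 without library 1, 0.279 without library 2 and 0.124 without library 3. At an unadjusted p of 0.05 the same single member was below the threshold, where 7.04% of all genes were. Of the other 20 complement genes past the filter, 3 were called, and these were C1qa, C1qb and C1qc (edgeR adjusted p = 3.83e-07, 1.27e-09 and 1.27e-09).

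By size, 4 of the 7 members had a range above 1 on the log2(CPM + 1) scale, as did 26.1% of all genes past the filter. They were Cd55 (3.34), C1ra (1.29), Serping1 (1.22) and C3 (1.08). The ranges of C1ra, Serping1 and C3 did not pass the test (edgeR adjusted p = 0.795, 0.949 and 0.9997), which does not show that the libraries were alike in them. C4b (0.66), Cfb (0.50) and C1s1 (0.12) had narrower ranges. With the trends of each library with GC content and gene length removed, 3 members exceeded 1, against 15.7% of all genes: Cd55 at 2.69, C1ra at 1.16 and C3 at 1.03, with Serping1 at 0.99.

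The order of libraries was not shared by the set. The combination of highest in library 1 and lowest in library 3, a pattern seen in the values and then counted, was found in C1ra and Serping1, 2 of the 7 members past the filter, and in 17.7% of all genes past it. Of the other 20 complement genes past the filter, 5 had it: C2, C1rl, C4a, C8g and Vtn, the last at 984, 421 and 327 CPM. Library 1 was highest for 3 of 7 members (C1ra, Serping1 and Cfb), against 39.6% of all genes, and lowest for 1 of 7 (Cd55), against 40.4%. Of the other 20 complement genes, 7 were highest and 10 lowest in library 1, among the latter the C1q chains, Cr1l and Cd59a.

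Removal of the trends with GC content and gene length, done together, moved single values of library 1 and left the sign of the larger ones. Library 1 minus the mean of libraries 2 and 3 was 1.16 for C1ra and 1.07 for Serping1 on the log2(CPM + 1) scale, and 1.01 and 0.80 after the trends were removed. For Cd55, whose longest transcript has a GC content of 43.5%, it was -2.97 and -2.37, and its call was kept (edgeR adjusted p = 0.00668). The small differences of C4b (0.21) and C1s1 (-0.00) became -0.03 and 0.18, so their direction was not resolved. Outside the set, the difference of Cr1l went from -0.58 to 0.74.

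**Figure D5:**
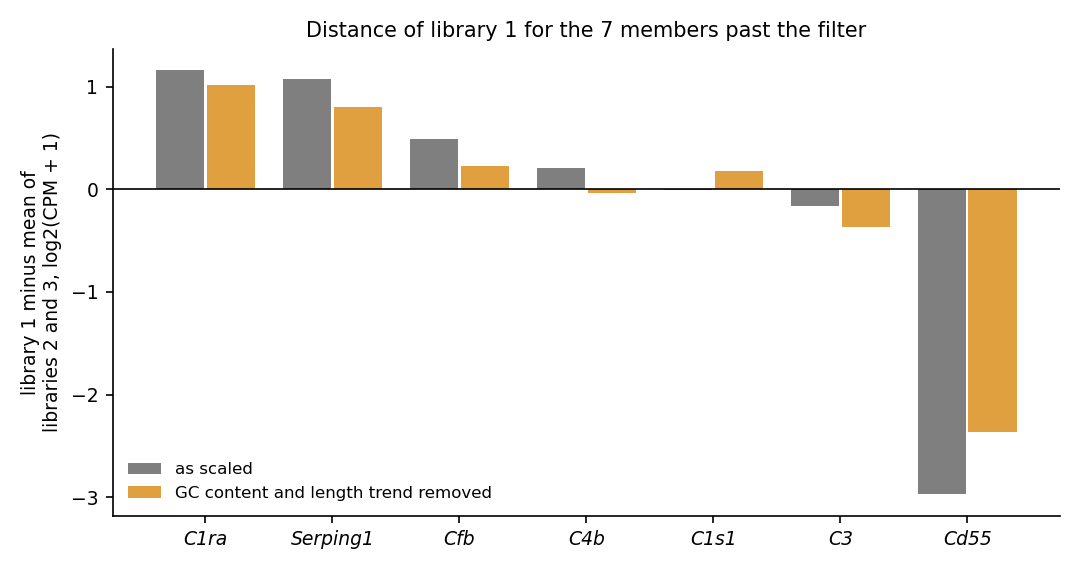
Library 1 minus the mean of libraries 2 and 3 on the log2(CPM + 1) scale for the 7 members past the filter, as scaled (grey) and with the trends with GC content and gene length removed (orange). C1ra (1.16 and 1.01) and Serping1 (1.07 and 0.80) are higher, Cd55 is lower (-2.97 and -2.37), and C1s1 and C4b lie near 0 with a change of sign.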

How the data were processed

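RNA of 3 libraries was amplified by template switching from sorted cells and sequenced as paired reads of 50 bases, per the labels' protocols. The authors deposited raw counts per gene, whole numbers without normalization. HTSeq 0.5.3, DESeq2 1.22.1 and the build mm10 appear in the submitters' processing notes; the aligner, annotation release and strand setting were not given in the sources used here. The 5 counter rows for reads of no gene, 39.1% to 45.6% of each library's total, stayed out of library sizes and of tests. Of the gene identifiers, 98.9% matched GENCODE M21 (GRCm38) without version number, and coordinates, exon lengths, GC content and sequences are from it.

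TMM scaling and filterByExpr (minimum count 10) were run in edgeR 4.0.16 with R 4.3.3. Values on the log2 scale are log2(CPM + 1), which understates changes of low genes. With 1 group there is no quasi-likelihood contrast, so differences between libraries were tested with edgeR's goodness-of-fit test over all genes, with Benjamini-Hochberg adjustment; it was tested on simulated data, where it missed many of the genes changed in 1 library, so a gene it does not call may still differ. Where 3 counts are given as a limit, they cover counting error alone, since amplified reads are not independent molecules. Coding sequences of the members were aligned with those of their copies, or for C4a with a transcript that has no annotated coding part, in Biopython 1.88. Where a symbol stood on more than 1 gene, the gene with more counts was used. Alternatives were DESeq2 1.42.0 size factors, plain totals, other filters and dispersions, a pseudocount of 0.1, values per kilobase, removal of GC content and length trends, and leaving out each library.

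The members and lists were chosen with earlier results of these data known. Text names every member, other complement genes at a mean of at least 10 CPM, the C1q chains and the members' near-identical copies, and leading genes of the marker lists. Adgre1, Cd3e, Cd3g, Ms4a1, Dpp4, Krt19, Cldn11, Dcn, Col6a1, Pdgfrb, Clic6, Prlr, Folr1, Kcnj13, Kl, Cidec, Lcn2, Isg15, Cfp, C8g, Colec11 and other complement genes below 10 CPM were named after their values were seen. So were Il6, Ccl2 and Saa3. A planned item is not reported here.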

Additional observations from a re-analysis of the deposited data

Results flagged for a closer look

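Reads that the table assigned to no gene because they aligned to more than 1 place formed a signal outside the measurements compared, above what a count of 0 allows. They made up 16.9% of the reads in the table in library 1, 15.3% in library 2 and 17.4% in library 3. Which of them came from C1ra, C1s1, C4b or their copies was not analysed here. Groups of 3 libraries are too small for a check on single outlying samples.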

How the results depend on the processing

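Of the alternatives, 153 left a result within its spread or on its side of the threshold, 31 moved it and 3 lost a call; the latter are the Cd55 values without each library given above. The count of variable genes (63) was 134 with no filter, where 25083 genes were tested, 181 with a filter on a mean of 10 counts, where 16392 were tested, and 97 with the GC content and length trends removed, where the cause was not tested. It ranged from 12 to 28 when each replicate was left out, with fewer samples. The count of variable members (1) ranged from 0 to 0 when each replicate was left out, by the edgeR goodness-of-fit test with 1 member at an unadjusted p below 0.05 in each such fit, and was 1 under the other 6 alternatives. The member below 0.05 unadjusted was C3 without library 1 (edgeR adjusted p = 0.517), and Cd55 without library 2 or library 3. The median level of the members (5.21) was 3.01 per kilobase, and that of the other complement genes (0.576) was 0.202 per kilobase and -0.81 with a pseudocount of 0.1, by construction. The sign of library 1 minus libraries 2 and 3 was kept in 7 of 7 members with plain totals, which shifted all genes by -0.12, in 6 with DESeq2 size factors (not C1s1) and in 5 with the trends removed (not C1s1 or C4b). No paired analysis was possible because there is no second group in the labels. Depth limited C7 and Cfd, for which 3 counts correspond to 0.101 to 0.152 CPM.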
